A study of Mus musculus with 6 samples.

Results

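A set of 40 genes of the NRF2 antioxidant programme, iron handling and ferroptosis was followed in mouse Th9 cells, CD4 T helper cells named for secreting interleukin 9. The set was chosen by symbol as a programme that sorafenib has been proposed to affect in tumour cells, and all 40 symbols were found among the 21233 genes of the deposited count table. Of these, 39 passed the filter on low counts, as did 13255 genes in all. The cells were either untreated (3 libraries, the controls) or treated with sorafenib (3 libraries), a small-molecule inhibitor of RAF and of several receptor tyrosine kinases. Dose, duration, mouse strain and the source of the cells have no entry in the labels used here, and the labels do not say that the numbered replicates were separate cultures or animals, so the p-values reflect variation among these libraries, possibly only technical.

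NRF2, encoded by Nfe2l2, is a transcription factor held at low levels by its adaptor KEAP1, which directs it to the proteasome. Oxidants and electrophiles modify KEAP1, NRF2 accumulates, pairs with a small MAF protein and binds antioxidant response elements of genes for glutathione synthesis, thioredoxin, NADPH supply, quinone reduction and ferritin. Ferroptosis is a form of cell death driven by iron-dependent peroxidation of membrane lipids. It is held back by GPX4, which uses glutathione to reduce lipid peroxides, and so by cystine uptake through the exchanger xCT, whose light chain is encoded by Slc7a11. Sorafenib has been described as an inhibitor of that exchanger in some tumour cells. T cells also depend on GPX4 and on iron uptake through the transferrin receptor when they divide.

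Total counts were 36981476 to 38126521 per library. Levels are CPM, counts relative to library size scaled with TMM factors, given as mean ± SD over 3 libraries, except where FPKM, the authors' length-scaled value, is named. A gene counts as higher or lower where edgeR's quasi-likelihood test gave an adjusted p under 0.05 over all 13255 genes, and fold changes compare sorafenib with control. Of the 12 markers of the labelled cells, 11 were in the table and all 11 were tested. Cd4 had 434 to 499 CPM in the control and 487 to 508 CPM in the sorafenib libraries, Il9 was higher, and Cd3e, Cd3g, Cd28, Cd2 and Lck were lower with sorafenib. Over all tested genes 8.51% were higher and 9.43% lower. The markers of the labelled cells summed to 4194 to 4352 CPM without and 3686 to 3815 CPM with the drug, and the part of this difference in the results for the set was not tested. Control replicate 2 stood apart from the other control libraries, with higher values of short genes. In it the lowest quartile of gene length (up to 2120 bases) lay 0.29 log2 CPM above the highest quartile (from 5833 bases) after removal of group means, against -0.19 and -0.11 in control replicates 1 and 3 and -0.02 to 0.02 in the sorafenib libraries. Among the 39 tested genes of the set, 15 were in the short quartile and 4 in the long, and 27 had their highest control value in that library. Each result below that turns on it is given with and without it.

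**Figure D1:**
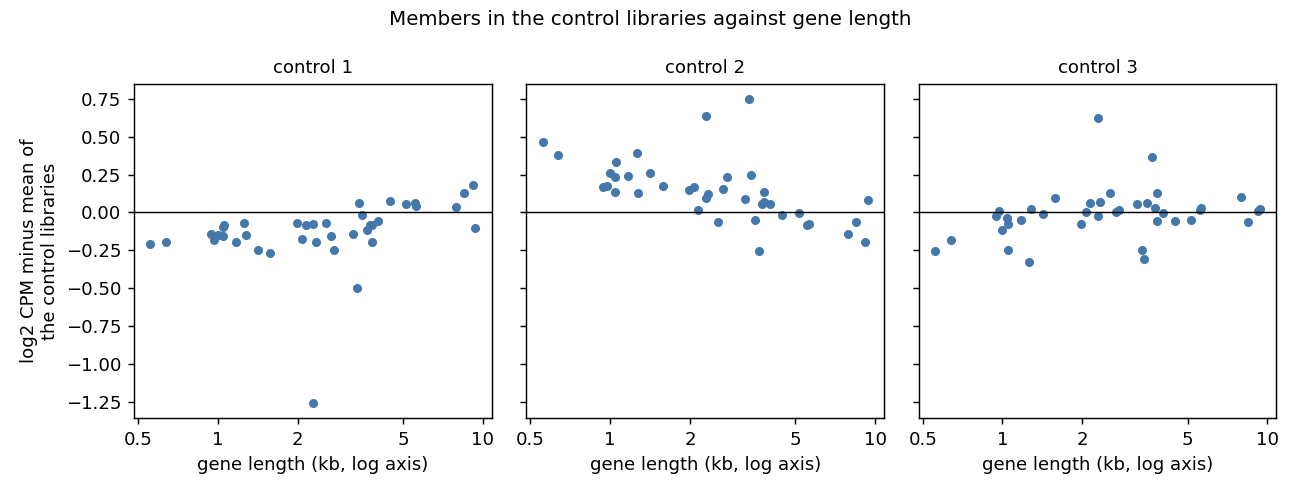
Each point is 1 tested gene of the set; the x axis is gene length in kilobases (log axis) and the y axis is its log2 CPM in a control library minus the mean of the control libraries. Short genes lie mostly above 0 in control replicate 2 and below 0 in control replicate 1.

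Sorafenib cells had more transcript of Nqo1, Slc7a11, Gclm, Cat and Ftl1 and less of Pgd. Nqo1 and Slc7a11 changed the most, 5.65-fold and 2.61-fold, both from very low levels, while the other changes were of 1.23- to 1.28-fold. The other 33 tested genes of the set did not pass, among them the regulators Nfe2l2, Keap1 and Mafg, the peroxidase Gpx4, haem oxygenase Hmox1, the ferritin heavy chain Fth1 and the transferrin receptor Tfrc. In all 5 were higher and 1 lower of 39, or 15.4%, where 17.9% of all tested genes were called (8.51% higher and 9.43% lower), a share below that of all tested genes in this fit. Its median log2 fold change was 0.02, and that of all tested genes was -0.01. The groups did not overlap for 16 of the 39 genes (41.0%), against 36.3% of all tested genes; 7 lay above the controls and 9 below, against 18.3% and 18.0% of all tested genes.

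The counts changed when single libraries were left out. Without control replicate 2, 11 genes of the set were higher and 5 lower, which is 41.0% of the set against 31.8% of all genes tested then, and over all genes the calls rose from 2378 to 4325. Thus the order of the 2 shares turned on this library, and with all 6 libraries it turned on the processing. The share of the set lay above that of all genes with total counts only (17.9% against 17.5%) and with a trend with gene length taken out. It also did with DESeq2 (20% against 12.4%), without the filter and on unfiltered log2(FPKM + 1), where low genes enter the share of all genes. With the other scalings, filters and fits of all 6 libraries it lay below. Without control replicate 1 the counts were 1 and 2, without control replicate 3 they were 2 and 1, and without sorafenib replicates 1, 2 and 3 they were 1, 2 and 1 higher, with 0 lower each time. In the same order these were 7.69%, 7.69%, 2.56%, 5.13% and 2.56% of the set. The shares of all genes tested then were 15.3%, 11.7%, 9.51%, 11.4% and 9.15%. The counts of 0 lower came from edgeR with 5 libraries, which leave fewer residual degrees of freedom than all 6. Over all genes the calls fell from 2378 to between 1243 and 2076 without any library other than control replicate 2. The log2 fold change of Pgd was -0.32, -0.29 and -0.28 without sorafenib replicates 1, 2 and 3, against -0.30 with all 6. That of Slc7a11 went from 1.38 to 0.99 without sorafenib replicate 3. What part the smaller number of libraries had in calls lost here and below was not tested. Scaling by total counts alone turned the balance over all genes from 1128 higher and 1250 lower to 1496 higher and 826 lower, while in the set it called 6 higher and 1 lower.

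**Figure D2:**
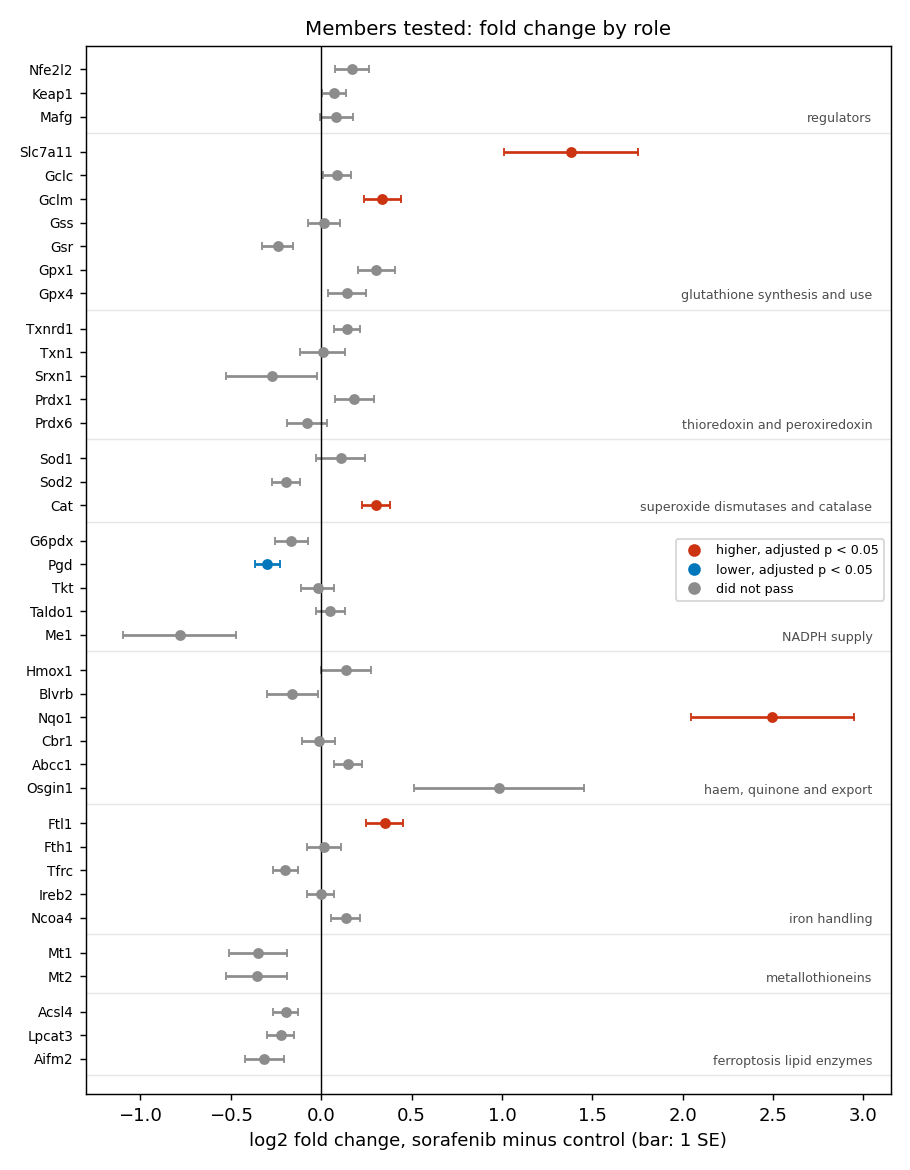
Points are log2 fold changes, sorafenib minus control, of the 39 tested genes of the set grouped by role, with bars of 1 SE; red is higher and blue lower at an adjusted p under 0.05, grey did not pass. Most genes lie within 0.36 of 0, and Nqo1 (2.50) and Slc7a11 (1.38) stand to the right.

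Compared per length, metallothioneins, ferritin and cytosolic superoxide dismutase were the most abundant members in control cells. Mt2, a metal-binding cysteine-rich protein, had 1493 ± 365 FPKM, above Ftl1, the ferritin light chain, with 832 ± 67.5 FPKM. Fth1 with 779 ± 47.3 FPKM and Mt1 with 762 ± 163 FPKM were next, and their spreads over libraries overlapped that of Ftl1. Within each control library Ftl1 lay above Fth1 (757 against 732, 888 against 827 and 851 against 780 FPKM). Sod1, which converts superoxide to hydrogen peroxide, followed with 461 ± 86.1 FPKM. A broad middle group of enzymes, regulators and transporters ran from Txn1 (150 ± 24.9 FPKM) and Gpx4 (140 ± 15.0 FPKM) to Ireb2 (8.47 ± 0.974 FPKM), and Aifm2 stood below it with 1.65 FPKM. At the bottom, with control means under 1 FPKM, were Srxn1, Me1, Osgin1, Slc7a11, Nqo1 and Slc40a1. Thus the 2 genes with the largest changes stood among the 6 least abundant of the set.

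**Figure D3:**
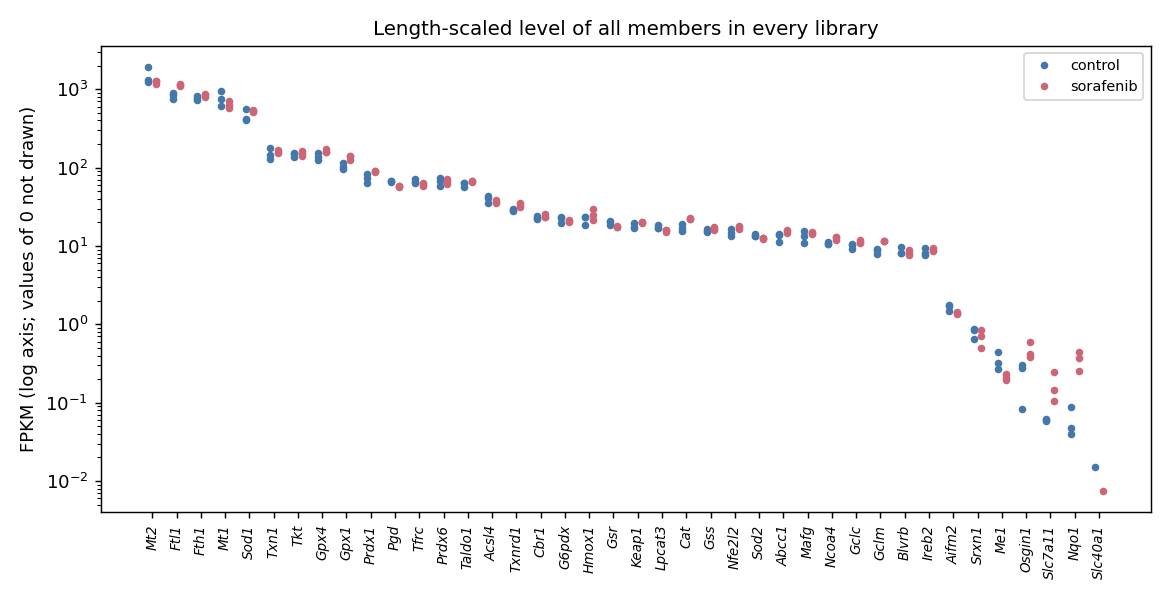
FPKM of all 40 genes in every library, on a log axis, ordered by control mean; blue points are control and red points sorafenib libraries, and values of 0 are not drawn. Levels range from 1493 FPKM for Mt2 to under 0.01 FPKM for Slc40a1, and the groups differ little for most genes.

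The regulators of the programme did not pass the test. Nfe2l2 had 50.0, 60.0 and 62.5 CPM in control replicates 1 to 3 and 68.0, 61.5 and 64.7 CPM in sorafenib replicates 1 to 3. The groups overlapped, and the fold change of 1.13 had a 95% interval of 0.977 to 1.30 (adjusted p = 0.243). Keap1, which targets NRF2 for degradation, had 86.4, 81.2 and 79.1 CPM without and 85.6, 86.6 and 86.9 CPM with the drug, which overlapped too (adjusted p = 0.526). Mafg, a small MAF partner of NRF2, had 123 ± 15.9 CPM and 131 ± 3.90 CPM (adjusted p = 0.593). Transcript levels do not report the amount of NRF2 protein, which is set mostly by its degradation and was not measured.

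Of the 7 genes of glutathione synthesis and use, 2 rose and 0 fell by edgeR, where 17.9% of all tested genes were called, and 4 had an unadjusted p under 0.05, as did 30.9% of all tested genes. Slc7a11 had 0.536, 0.610 and 0.586 CPM without and 1.34, 0.965 and 2.22 CPM with the drug, which is 20 to 22 counts against 37 to 87 counts. Every sorafenib value lay above every control value, with sorafenib replicate 3 the highest. The rise was 2.61-fold (log2 fold change 1.38 ± 0.37 SE, adjusted p = 0.0269). It was lost without control replicate 1 (adjusted p = 0.0704) or 3 (0.0796) and without sorafenib replicate 1 (0.0718) or 3 (0.175), and on unfiltered log2(FPKM + 1) (0.195). Gclm encodes the modifier subunit and Gclc the catalytic subunit of glutamate-cysteine ligase, the rate-limiting enzyme of glutathione synthesis. Gclm had 16.4, 20.7 and 18.5 CPM without and 23.7, 23.4 and 23.1 CPM with the drug, groups that did not overlap, and rose 1.27-fold (log2 fold change 0.34 ± 0.10 SE, adjusted p = 0.0392). That call held without control replicate 2 and was lost on leaving out any other library (adjusted p from 0.0984 to 0.131). Gclc had 36.4 ± 1.42 CPM without and 38.6 ± 1.71 CPM with the drug (adjusted p = 0.491), and Gss, glutathione synthetase, had 31.7 ± 2.84 CPM and 32.0 ± 1.11 CPM (adjusted p = 0.933).

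The enzymes that spend and restore glutathione had small differences. Gpx4, the lipid peroxide reductase that restrains ferroptosis, had 146, 198 and 162 CPM without and 199, 181 and 180 CPM with the drug. Control replicate 2 alone reached the sorafenib values, and the fold change of 1.10 had a 95% interval of 0.941 to 1.30 (adjusted p = 0.394). Without that library the Gpx4 rise was called, with an adjusted p of 0.00181. Gpx1, the cytosolic peroxidase, had 112 ± 16.4 CPM and 138 ± 8.51 CPM (1.24-fold, adjusted p = 0.0626), and it was called higher in 9 of 17 alternatives, among them without control replicate 2 (adjusted p = 2.35e-05). Those 9 also included total counts only and the FPKM fits, where the median log2 fold change of all genes was 0.044 to 0.066, against -0.011 by edgeR. Gsr, which regenerates reduced glutathione from NADPH, had 54.2 ± 5.82 CPM and 45.9 ± 0.819 CPM with all sorafenib libraries below the controls (1.18-fold lower, adjusted p = 0.0836). Gsr passed as lower when control replicate 1 was left out (adjusted p = 0.0258) or when a trend with gene length was taken out, a correction chosen after seeing the data (0.0252).

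**Figure D4:**
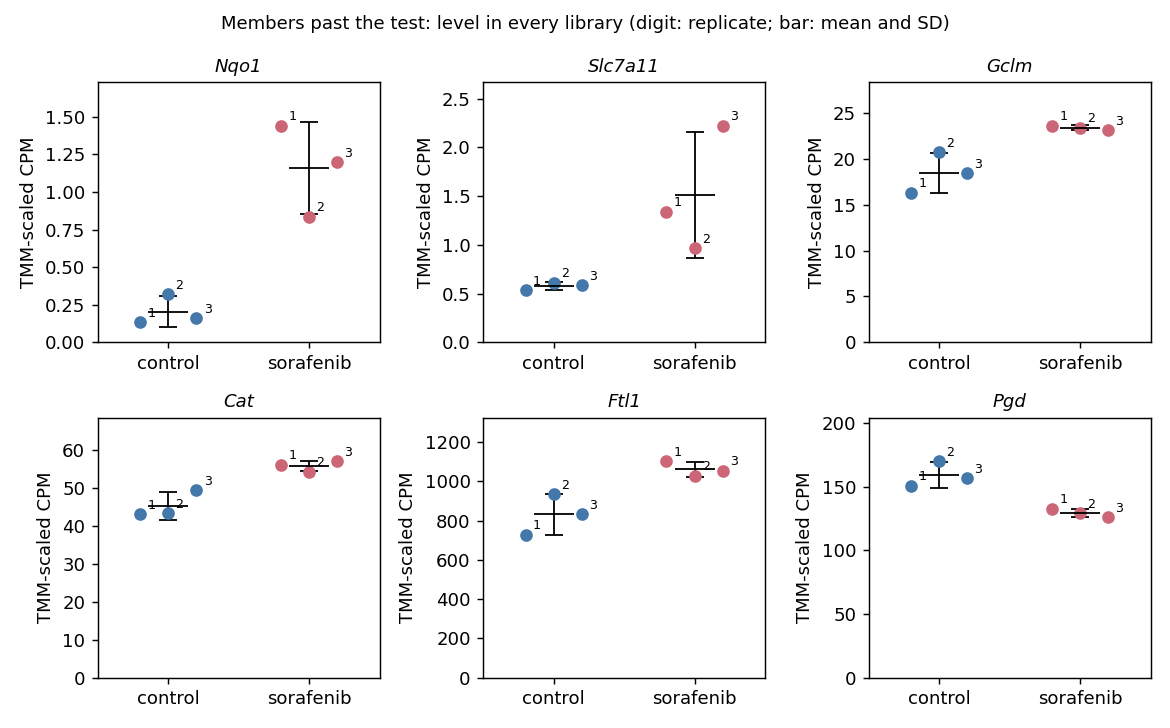
CPM (TMM-scaled, linear axes from 0) of the 6 genes of the set past the test, in every library; digits are replicate numbers and bars are mean and SD of 3 libraries. In each panel the control and sorafenib libraries do not overlap, and Nqo1 and Slc7a11 stay below 2.3 CPM throughout.

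Antioxidant response elements were searched as TGACNNNGC on both strands of RefSeq promoter windows, which run from 250 bases before to 50 bases after a start site (GRCm38.p6). Of the 34 members with a window, 12 held the motif (35.3%), against 14.0% of 27025 genes with a window. Some genes have several windows, and by window it was 12 of 46 against 12.4% of 32851. The set was chosen to hold NRF2 targets, so this difference does not bear on sorafenib. A match is a description of these letters and not a bound site. Bases farther from a start site were not searched, so a window without a match does not mean that the gene lacks the motif. Gclc, Gsr, Prdx6, Hmox1, Abcc1 and Slc40a1 had no window. Among the 6 genes past the test the motif was present for Gclm, which rose, and for Pgd, which fell. In Gclm it was TGACGGTGC on the minus strand. In Pgd it was TGACATTGC just after the start site of the window chr4:149166033-149166332. The Pgd window farther upstream, chr4:149166656-149166955, held no match. The other matches were in the windows of Nfe2l2, Mafg, Txnrd1, Srxn1, Prdx1, Sod1, G6pdx, Me1, Ncoa4 and Mt2, none of which passed the test. Txnrd1, Me1 and Ncoa4 also had windows without a match. Prdx1, Me1 and Mt2 shared the same 9 bases, TGACTCAGC. The 250 bases before the start are shown for Gclm (chr3:122245307-122245556, plus strand), with the motif in capitals, and for Nqo1 (chr8:107403206-107403455, minus strand), the gene with the largest change, whose window held no match.
Gclm: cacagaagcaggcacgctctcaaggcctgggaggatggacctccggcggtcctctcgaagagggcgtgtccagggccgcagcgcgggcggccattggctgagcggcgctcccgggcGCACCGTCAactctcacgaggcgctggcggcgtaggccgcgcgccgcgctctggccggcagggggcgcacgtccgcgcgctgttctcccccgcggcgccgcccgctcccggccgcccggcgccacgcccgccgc
Nqo1: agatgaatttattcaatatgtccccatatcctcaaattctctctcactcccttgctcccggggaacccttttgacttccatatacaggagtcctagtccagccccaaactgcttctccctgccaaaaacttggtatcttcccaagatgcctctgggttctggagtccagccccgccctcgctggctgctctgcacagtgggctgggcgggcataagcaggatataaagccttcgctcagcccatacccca

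Nqo1 encodes a quinone reductase that is widely used as a readout of NRF2 activity. It had 5, 11 and 6 counts in the control libraries and 56, 32 and 47 counts in the sorafenib libraries, or 0.134, 0.319 and 0.160 CPM against 1.44, 0.835 and 1.20 CPM. Every sorafenib library lay well above every control library, although both groups were low. The rise was 5.65-fold with a 95% interval of 2.82 to 11.3 (log2 fold change 2.50 ± 0.45 SE, adjusted p = 0.00373), and it was called in all 14 alternatives that tested the gene (adjusted p from 5.78e-05 to 0.0295). With 1 added to FPKM its log2 difference was 0.35, since that constant exceeds its level. Osgin1, another NRF2 target at low level, had 7, 24 and 26 counts against 33, 36 and 52 counts, a fold change of 1.98 that did not pass (adjusted p = 0.188).

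Most tested markers of B cells were higher with sorafenib too. Of the 10 listed, 9 were in the table and 7 were tested, of which 5 were higher, among them Cd79a, Pax5 and Blnk, and Ebf1 was lower. Of all tested genes 8.51% were higher and 9.43% lower. Pax5, a B cell transcription factor, had 20 to 43 counts per control library and 126 to 131 per sorafenib library, while Ebf1, with the highest counts of the list in control cells, had 642 to 770 and 189 to 260 counts. Their summed level was 27.1 to 34.9 CPM without and 35.2 to 37.9 CPM with the drug. The defining B cell gene Ms4a1 had 0 to 1 counts per control library and 1 to 2 counts per sorafenib library, where 3 counts corresponded to 0.0766 to 0.0871 CPM, a floor that covers counting error only. Whether B cells were present, and what part they had in the Nqo1 and Slc7a11 results, was not tested. In bulk RNA, more cells of a type and more RNA per cell cannot be told apart.

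The haem and detoxification genes other than Nqo1 did not pass. Hmox1, the inducible enzyme that opens haem and frees its iron, had 29.3, 39.8 and 37.6 CPM without and 46.0, 32.8 and 38.4 CPM with the drug. The groups overlapped widely, with a fold change of 1.10 and a 95% interval of 0.887 to 1.36 (adjusted p = 0.563). Blvrb, a biliverdin reductase, had 8.90 ± 1.45 CPM and 7.95 ± 0.673 CPM. Cbr1, a carbonyl reductase, had 24.7 ± 2.12 CPM and 24.5 ± 1.08 CPM. Abcc1, an exporter of glutathione conjugates, had 107 ± 9.18 CPM and 118 ± 5.43 CPM (adjusted p = 0.240).

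None of the 5 thioredoxin and peroxiredoxin genes passed by edgeR, where 17.9% of all tested genes were called. An unadjusted p under 0.05 was found for 0 of them and for 30.9% of all tested genes. By DESeq2 none was called either, while limma on filtered log2(FPKM + 1) and log2(FPKM + 0.1) called Txnrd1 higher (adjusted p = 0.0434 and 0.0438). FPKM is scaled by column total and length, without TMM. In these fits the median log2 fold change of all genes was 0.054 and 0.064, against -0.011 by edgeR. That of Txnrd1 was 0.21 and 0.22, against 0.14 by edgeR. Txnrd1, the selenoenzyme that reduces thioredoxin, had 114, 124 and 118 CPM without and 141, 124 and 129 CPM with the drug, so that all sorafenib values lay above the controls by a small margin (1.10-fold, adjusted p = 0.212). Txn1, thioredoxin itself, had 163 ± 34.7 CPM and 164 ± 6.23 CPM. Prdx1, a peroxiredoxin, had 108 ± 19.0 CPM and 123 ± 2.89 CPM, and Prdx6, which also reduces phospholipid peroxides, had 189 ± 31.1 CPM and 179 ± 12.4 CPM. Srxn1, which repairs overoxidised peroxiredoxins, was low, with 2.78 ± 0.526 CPM and 2.29 ± 0.612 CPM. Without control replicate 2, Txnrd1, Txn1 and Prdx1 were called higher.

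Catalase rose, and neither superoxide dismutase passed the test. Cat, which splits hydrogen peroxide in peroxisomes, had 43.0, 43.2 and 49.4 CPM without and 56.0, 54.2 and 57.0 CPM with the drug. All sorafenib libraries lay above all controls, and the rise was 1.23-fold (log2 fold change 0.30 ± 0.08 SE, adjusted p = 0.0230). The Cat rise did not pass without control replicate 1 (adjusted p = 0.0658), without sorafenib replicate 1 (0.0955), 2 (0.0612) or 3 (0.120), and on unfiltered log2(FPKM + 1) (0.0516). Sod1 had 304 ± 72.5 CPM and 328 ± 8.43 CPM (adjusted p = 0.650), its control spread resting on 388 CPM in control replicate 2, and was called higher without that library (adjusted p = 9.70e-05). The mitochondrial dismutase Sod2 had 53.4 ± 4.46 CPM and 46.7 ± 0.190 CPM, all sorafenib libraries below the controls (1.14-fold lower, adjusted p = 0.120). Once the length trend was taken out Sod2 was called lower (adjusted p = 0.0487).

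Among the 5 genes of NADPH supply, which feeds the reduction of glutathione and thioredoxin, 0 rose and 1 fell by edgeR. Over all tested genes 8.51% were higher and 9.43% lower. Pgd, the decarboxylating dehydrogenase of the pentose phosphate pathway, had 151, 170 and 157 CPM without and 133, 129 and 126 CPM with the drug. The groups did not overlap, and it fell 1.23-fold (log2 fold change -0.30 ± 0.07 SE, adjusted p = 0.0134). The call was lost without sorafenib replicate 1 (adjusted p = 0.0516), 2 (0.0603) or 3 (0.0921) and held without each control library. G6pdx, the entry enzyme of the pathway, had 53.0 ± 6.02 CPM and 47.3 ± 2.18 CPM (adjusted p = 0.259). Tkt and Taldo1, transketolase and transaldolase of its non-oxidative branch, had 485 ± 41.5 and 80.6 ± 7.59 CPM without and 479 ± 37.7 and 83.4 ± 1.77 CPM with the drug. Me1, the cytosolic malic enzyme, had 37 to 62 counts in control and 27 to 32 counts in sorafenib libraries, 1.72-fold lower without passing (adjusted p = 0.118).

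Iron-handling transcripts carry iron-responsive elements, stem-loops that the iron regulatory proteins bind when iron is scarce. Bound in front of the coding region they block translation of ferritin and ferroportin, and bound behind it they protect the transferrin receptor transcript from decay. The pattern searched was an unpaired C, a stem of 5 pairs (G-T pairs allowed) and the loop CAGTGN with its last base not G, on the transcript strand of GENCODE M21 protein-coding transcripts (GRCm38). It occurred in 5 of the 40 genes and in 1.01% of 21877 genes. The sites in the untranslated regions are shown as DNA letters with the 6-base loop in capitals. Those of Ftl1, Fth1 and Slc40a1 lie before the coding region (first base of the C at 84, 93 and 96 of the transcript), and 4 lie after the coding region of Tfrc. Keap1 matched inside its coding region and is not shown.
Ftl1: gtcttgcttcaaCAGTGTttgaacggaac
Fth1: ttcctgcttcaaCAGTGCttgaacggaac
Slc40a1: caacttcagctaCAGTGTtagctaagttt
Tfrc, base 3321: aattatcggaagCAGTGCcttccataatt
Tfrc, base 3700: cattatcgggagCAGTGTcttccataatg
Tfrc, base 3765: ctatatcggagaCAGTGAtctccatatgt
Tfrc, base 3812: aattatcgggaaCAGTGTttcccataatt

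Ftl1 rose while its partner Fth1 did not pass. Ftl1 had 728, 934 and 832 CPM without and 1103, 1028 and 1054 CPM with the drug, groups that did not overlap, and rose 1.28-fold (log2 fold change 0.35 ± 0.10 SE, adjusted p = 0.0376). Fth1, the heavy chain with the ferroxidase site, had 684, 845 and 740 CPM without and 796, 762 and 738 CPM with the drug, which overlapped (fold change 1.01, 95% interval 0.874 to 1.17, adjusted p = 0.932). The Ftl1 call was lost with the replicate block (adjusted p = 0.0635) and on leaving out any single library other than control replicate 2 (adjusted p from 0.0833 to 0.158). Both transcripts are about equally short (970 and 942 bases), and the ratio of their counts within a library does not depend on scaling. That ratio was 1.06, 1.11 and 1.12 in control and 1.39, 1.35 and 1.43 in sorafenib libraries, or 1.10 ± 0.0304 against 1.39 ± 0.0389 (SD, n = 3). The difference was larger than the spread in either group, with a two-sided exact permutation p of 0.1, the smallest that 3 against 3 libraries allow (0.15 adjusted over the 3 ratios computed). Ferritin genes have many processed copies in the genome, so reads shared with copies leave the separate values uncertain, and the ratio was chosen after its values were seen.

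**Figure D5:**
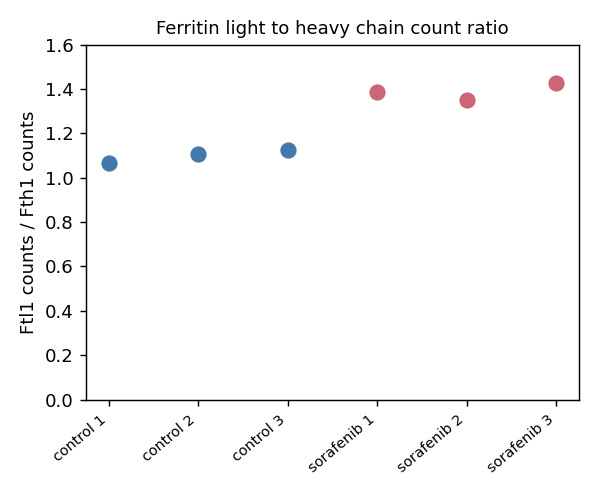
Counts of Ftl1 divided by counts of Fth1 in each library (linear axis from 0); blue is control and red sorafenib. The control libraries lie between 1.06 and 1.12 and the sorafenib libraries between 1.35 and 1.43.

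The other iron genes of the set did not pass. Tfrc, the transferrin receptor that brings iron into the cell, had 369, 353 and 343 CPM without and 297, 309 and 321 CPM with the drug. All sorafenib libraries lay below the controls, 1.15-fold lower with a 95% interval of 0.783 to 0.969 for the fold change (adjusted p = 0.0750). It was called lower by DESeq2, without control replicate 2 and with the gene length trend removed. Ireb2, iron regulatory protein 2, had 73.6 ± 5.69 CPM and 73.4 ± 3.03 CPM, and Ncoa4, the receptor that delivers ferritin to autophagy, had 41.9 ± 2.16 CPM and 46.0 ± 2.72 CPM (adjusted p = 0.282). Slc40a1, the iron exporter ferroportin, was not tested, with 0, 2 and 0 counts in control and 1, 0 and 0 counts in sorafenib libraries, all under the floor of 3 counts. Macrophage markers, which would accompany cells rich in ferroportin, had summed levels of 92.6 to 123 CPM without and 97.6 to 103 CPM with the drug over the 17 of 20 in the table. Of the 7 tested, Ctss was higher and Cst3 lower, where 17.9% of all tested genes were called. The defining Csf1r had 0 counts in every control library and 0 to 2 in the sorafenib libraries.

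Neither metallothionein passed. Mt1 had 924, 1276 and 774 CPM without and 714, 863 and 760 CPM with the drug, and Mt2 had 723, 1154 and 702 CPM and 699, 677 and 637 CPM. Control replicate 2 was the highest library for both, and the other control values lay close to the sorafenib values (adjusted p = 0.174 and 0.180). Without that library the log2 fold change by edgeR went from -0.35 to -0.12 for Mt1 (adjusted p = 0.350). For Mt2 it went from -0.36 to -0.084 (adjusted p = 0.267). Once the length trend was taken out, with all 6 libraries, Mt2 was called lower (adjusted p = 0.0424).

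The 3 genes of ferroptosis lipid metabolism all had lower values with sorafenib and none passed. Acsl4, which loads polyunsaturated fatty acids onto coenzyme A and so sets the supply of oxidisable lipids, had 237, 214 and 229 CPM without and 197, 191 and 206 CPM with the drug. Every sorafenib library lay below every control library (1.15-fold lower, 95% interval of the fold change 0.785 to 0.970, adjusted p = 0.0763). Lpcat3, which places those fatty acids into phospholipids, had 38.5 ± 1.96 CPM and 32.9 ± 0.835 CPM (adjusted p = 0.0687). Aifm2, which encodes FSP1, a reductase of coenzyme Q that protects from ferroptosis, had 9.48 ± 0.414 CPM and 7.62 ± 0.150 CPM (adjusted p = 0.0705). The groups did not overlap for any of the 3, nor for 36.3% of all tested genes (18.0% with sorafenib below). All 3 had an unadjusted p under 0.05, as did 30.9% of all tested genes. All 3 were called lower without control replicate 2 and with the gene length trend removed. With that trend removed 6 genes of the set were higher and 8 lower, which is 35.9% of the set against 24.1% of all tested genes.

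Further genes of these pathways were taken from 4 lists, of which 170 of 173 symbols were in the table and 149 were tested. In all 15 were higher and 16 lower, which is 20.8% of those tested against 17.9% of all tested genes, with a median log2 fold change of 0.03. Among other NRF2 partners and targets 6 rose and 3 fell of 35, or 25.7%. The epoxide hydrolase Ephx1 rose 1.85-fold, from 28.2 ± 1.19 to 52.2 ± 2.34 CPM (adjusted p = 4.54e-05), the reductase Ptgr1 rose 2.60-fold from 1.76 ± 0.292 CPM, the related factor Nfe2l1 rose 1.28-fold and the glycine transporter Slc6a9 1.55-fold. The aldo-keto reductase Akr1b8 fell 1.91-fold, the glutathione transferase Gstk1 fell 1.73-fold and Fbxo30 fell 1.40-fold. The Fbxo30 call was lost in 9 of 17 alternatives, among them on leaving out any single library other than control replicate 2, while the other 6 genes named here were called in all 17.

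Among other glutathione and thioredoxin genes 3 rose and 4 fell of 41, or 17.1%. Slc3a2, the heavy chain that pairs with the Slc7a11 product, had 247 ± 22.9 CPM in control and rose 1.32-fold, to 326 ± 36.5 CPM (adjusted p = 0.0172). It did not pass when control replicate 1 (adjusted p = 0.0501) or 3 (0.0541), sorafenib replicate 1 (0.0988) or 3 (0.0750), or the length trend (0.0731) was taken out. Cth, which makes cysteine from cystathionine, rose 2.36-fold, from 12.1 ± 3.06 to 28.5 ± 4.20 CPM (adjusted p = 0.000813). Gpx3, a secreted peroxidase, rose 2.24-fold at a low level, a call lost in 9 of 14 alternatives, among them on leaving out any single library. Ggt7, a gamma-glutamyl transferase relative, fell 1.85-fold, the glutaminase Gls2 fell 1.44-fold, and the peroxiredoxins Prdx4 and Prdx5 fell 1.34-fold and 1.36-fold. The Prdx5 call was lost without any 1 of the sorafenib libraries and on unfiltered log2(FPKM + 1).

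Among other iron genes 1 rose and 5 fell of 36, or 16.7%. Slc39a8, a transporter of zinc, manganese and iron, fell 2.03-fold, from 48.9 ± 2.04 to 24.1 ± 0.686 CPM (adjusted p = 1.92e-05). Hfe, a modulator of transferrin uptake, was low, with 0.817 ± 0.366 CPM without and 0.129 ± 0.0503 CPM with sorafenib, a fall of 6.20-fold. Of the haem synthesis enzymes, Cpox rose 1.30-fold and Ppox fell 1.28-fold. The Ppox call was lost without sorafenib replicate 1 or 3, and the Ppox and Hfe calls on unfiltered log2(FPKM + 1).

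Among other ferroptosis genes 5 rose and 4 fell of 37, or 24.3%. Gch1, whose product makes the antioxidant tetrahydrobiopterin, rose 1.52-fold, the reductase Cyb5r1 rose 1.37-fold, the amino acid transporter Slc38a1 1.23-fold and Alox5ap 4.13-fold from 0.130 ± 0.0749 CPM. The desaturase Scd1 fell 1.86-fold, squalene synthase Fdft1 1.47-fold and the acyltransferases Mboat1 and Mboat2 1.54-fold and 1.27-fold. The Scd1, Fdft1 and Mboat1 calls held in all 17 alternatives. Alox5ap did not pass on leaving out any single library other than control replicate 2 (adjusted p up to 0.102). Gch1 did not pass without control replicate 1 or 3 or sorafenib replicate 1 or 2, Slc38a1 without control replicate 3 or sorafenib replicate 1 or 3, Mboat2 without sorafenib replicate 1 or 3, and Cyb5r1 without sorafenib replicate 1. On FPKM, Slc38a1 did not pass in 1 of the 3 fits and Mboat2 in 3 of 3.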

How the data were processed

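RNA from 6 mouse Th9 cell libraries (3 control, 3 sorafenib, grouped by title) was extracted with TRIzol and made into libraries with a VAHTS Universal V5 kit, per the labels' protocols. The authors deposited raw gene counts and FPKM. The submitters' processing notes name fastp, HISAT2, HTSeq, R 3.2.0, DESeq2 and GRCm39; the strand setting and the handling of multi-mapped reads are not given there or in the other sources used here. Deposited FPKM equalled counts scaled by column total and a length per gene (within 1% for 100% of 105302 values), which gave gene lengths.

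Counts were filtered with filterByExpr (13255 of 21233 genes), TMM-scaled and tested with edgeR 4.0.16 in R 4.3.3 (quasi-likelihood F test, robust, group only, 4 residual degrees of freedom, common biological coefficient of variation 10.9%, Benjamini-Hochberg threshold 0.05). Standard errors derive from F. Members and lists were chosen with earlier results of these data known. Every member is named; per-library values are given for called members and 11 fixed ones or, where shown, others; outside the set, up to 4 called genes per list and direction with the smallest p are named, except some not reported here. No number pairs the libraries: correlations of deviations between same-numbered libraries were -0.06, 0.15 and 0.10. Replicate libraries differed beyond counting noise. Alternatives were other scalings and filters, a replicate block, DESeq2 1.42.0, limma-voom and FPKM fits (limma 3.58.1, pseudocounts 1 and 0.1, mean FPKM of at least 0.5 or no filter), each library left out and, added later, removal of the gene length trend.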

Additional observations from a re-analysis of the deposited data

How the results depend on the processing

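Counts in the set were 5 higher and 1 lower, and 3 to 6 higher and 1 to 2 lower over the alternatives that kept all 6 libraries and made no length correction: CPM of at least 1 in 3 samples called 3 higher, because low genes were removed, and DESeq2 called 2 lower. Leaving out single libraries gave 1 to 11 higher, 0 to 5 lower and 1243 to 4325 calls over all genes. Unfiltered log2(FPKM + 1) called 1423 genes in all. Removing the gene length trend gave 8 lower in the set. The replicate block called 5 higher and 1 lower in the set and 2139 genes in all, and control replicate 1 did not correlate best with its own number. Signs turned only for 9 members that were not called, of which Txn1 was called higher without control replicate 2. The median log2 fold change of all genes was -0.011 in the main fit, 0.066 with total counts only and 0.044 to 0.064 on FPKM. With total counts only the turned log2 fold change was 0.0049 for Prdx6, 0.059 for Tkt, 0.065 for Cbr1, 0.070 for Ireb2. Without the filter the turned log2 fold change was 0.0042 for Ireb2. On log2(FPKM + 1) with and without the filter the turned log2 fold change was 0.010 for Prdx6, 0.058 for Tkt, 0.062 for Cbr1, 0.067 for Ireb2. On log2(FPKM + 0.1) the turned log2 fold change was 0.010 for Prdx6, 0.059 for Tkt, 0.064 for Cbr1, 0.074 for Ireb2. With the length trend removed the turned log2 fold change was 0.016 for Cbr1. Leave-one-out ranges were -0.0053 to 0.18 for Mafg, -0.021 to 0.093 for Gss, -0.10 to 0.19 for Txn1, -0.19 to 0.048 for Prdx6, -0.089 to 0.050 for Tkt, -0.022 to 0.12 for Taldo1, -0.064 to 0.059 for Cbr1, -0.053 to 0.11 for Fth1, -0.038 to 0.061 for Ireb2.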

Other observations

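Within-library ratios were computed for 3 pairs of related members. The ratio of Gpx1 to Gpx4 counts, both short selenoprotein transcripts, was 0.682, 0.660 and 0.653 in control and 0.723, 0.792 and 0.717 in sorafenib libraries. It was higher in all 3 sorafenib libraries than in any control library, with a two-sided exact permutation p of 0.1 (0.15 adjusted over the 3 ratios). That is the smallest p that 3 against 3 libraries allow. The ratio rests on the same counts as the Gpx1 and Gpx4 results above and is no separate support for them. The ratio of Gclm to Gclc counts was 0.455, 0.590 and 0.487 in control and 0.583, 0.623 and 0.615 in sorafenib libraries. Control replicate 2 overlapped the sorafenib values, with a two-sided exact permutation p of 0.2.

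Neutrophil markers had summed levels of 9.38 to 11.3 CPM without and 2.58 to 2.96 CPM with the drug over the 6 of 9 in the table, with Ly6g and Cxcr2 lower among 3 tested. Erythroid markers, relevant to haem and iron genes, summed to 12.1 to 15.1 CPM without and 10.9 to 12.8 CPM with the drug over 10 of 10, with 0 of 2 tested called by edgeR and 0 at an unadjusted p under 0.05. Mast cell and basophil markers summed to 17.7 to 19.5 CPM without and 19.0 to 20.5 CPM with the drug over 4 of 9, with 0 of 2 tested called and 0 at an unadjusted p under 0.05. CD8 T and NK cell markers summed to 8.71 to 10.2 CPM and 11.7 to 14.4 CPM over 6 of 7, with Cd8b1 higher among 4 tested. Of all tested genes 17.9% were called (8.51% higher and 9.43% lower), and 30.9% had an unadjusted p under 0.05.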
